A study of Homo sapiens with 12 samples.

Results

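YAP1 and TAZ (encoded by WWTR1) are the transcriptional coactivators at the end of the Hippo pathway, and they are described here with their DNA-binding partner TEAD1, the upstream regulators LATS2 and AJUBA, and the target genes CTGF, CYR61, ANKRD1, AMOTL2 and AXL. These 10 genes were taken by name from a table of 58735 genes, where CTGF is the older symbol of CCN2 and CYR61 that of CCN1, and all 10 were found and passed the filter on low counts. RNA was sequenced from GFP-labelled MDA-MB-231 cells, an established triple-negative breast cancer line, held in fibrin gel in a perfused plate called AngioPlate. In the monoculture the cancer tissue was alone, in the hepatic co-culture it shared the device with tissue of HepG2 cells (a liver cancer line) and 2% lung fibroblasts, and in the cardiac co-culture with tissue of cardiomyocytes made from induced pluripotent stem (iPS) cells and 2% cardiac fibroblasts. All 3 groups had perfusion, the same cancer line and fibrin, each had 4 libraries, and RNA came from the cancer tissue 5 days after the cancer cells were seeded. The series' title concerns invasion of several organs and resistance of the heart to metastasis. The libraries are labelled as biological replicates, but their cultures of origin are not named, and each p-value therefore reflects library-to-library spread that may be technical.

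The Hippo pathway is a kinase cascade: STK3 and STK4 with SAV1 activate LATS1 and LATS2, which phosphorylate YAP1 and TAZ and so keep them in the cytoplasm or send them to degradation. In the nucleus YAP1 and TAZ have no DNA-binding domain of their own and act through TEAD factors, often beside AP-1 at enhancers. Stiff substrates, cell spreading and actin tension raise their activity, crowding lowers it, and in breast cancer lines they are known for growth, invasion and matrix-related transcription. Activity is set largely by protein phosphorylation and location, which RNA counts do not measure.

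Total counts were 35.0 to 42.0 M (mega) for monoculture, 26.2 to 42.4 M for hepatic and 27.0 to 37.4 M for cardiac co-culture libraries, and each of the 10 genes had at least 678 counts in every library. Mitochondrial counts made up 4.64% to 6.01% of a library. One cardiac library, replicate 4, stood apart: on the first principal component (28.5% of the variance) it lay at -24.9, inside the monoculture range of -51.1 to -22.3, while the other cardiac libraries lay at 6.79 to 16.3. It was also the only library with counts of the cardiomyocyte genes MYH6 (21 counts) and MYL7 (8 counts). Of the other cardiomyocyte markers, ACTN2 (8 counts), NPPA (10) and TNNI1 (1) were also highest there. MYH7 and NPPB had 0 counts in it, and TNNT2 (2), TNNI3 (2), MYL2 (2) and RYR2 (109) were exceeded in other libraries. Cardiac fold changes and counts of calls are therefore given with and without this library. Markers of the cancer line (VIM, CD44, CAV1, MSN and PLAUR) summed to 2616 to 3257 CPM (counts relative to library size, scaled by the TMM method) in every library. Of 10 hepatocyte markers SERPINA1 alone passed 1 CPM, and the 10 summed to 42.0 to 74.4 CPM in the monoculture, 34.8 to 58.5 in the hepatic and 69.5 to 95.7 with cardiac tissue. The 11 cardiomyocyte markers summed to 2.30 to 3.23, 0.776 to 2.10 and 1.28 to 4.29 CPM in the same order, mostly RYR2, with TNNI1, MYH6, ACTN2 and MYL7 at 0 in all monoculture and hepatic libraries. The 10 fibroblast markers summed to 9.91 to 16.7, 11.7 to 23.9 and 12.3 to 13.3 CPM, with POSTN and THY1 at 0 in every library, and 6 endothelial markers to 11.6 to 19.0, 18.3 to 27.6 and 15.5 to 18.3 CPM. The ranges of the last list in monoculture and hepatic libraries overlap only between 18.3 and 19.0 CPM. That sum is mostly PECAM1 (mean 10.9 CPM in monoculture and 15.5 in hepatic libraries), and the members did not move together. KDR was lower in the hepatic libraries (mean 3.22 to 1.26 CPM), TIE1, TEK and VWF were higher, and CDH5 was near 0. Nor did the fibroblast markers move together: in the hepatic libraries DCN was lower (mean 2.48 to 0.278 CPM) and COL1A2 higher (1.56 to 4.55 CPM). The part of hepatocytes, cardiomyocytes, fibroblasts and endothelial cells in the results below was not tested.

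Beside hepatic tissue YAP1 was lower, while WWTR1 was higher by a small amount, in a call lost in most fits that left out 1 library. YAP1 (chr11:102110461-102233423 on GRCh38, plus strand) had 257.0, 243.4, 297.7 and 264.4 CPM in the monoculture libraries, 184.4, 184.9, 185.5 and 184.9 CPM in the hepatic and 217.3, 229.3, 223.8 and 250.5 CPM in the cardiac libraries. Every hepatic library lay below every cardiac library, and the cardiac range overlapped the low end of the monoculture range. Groups without overlap are common here: 30.5% of all tested genes hepatic against monoculture, 15.2% cardiac against monoculture and 11.9% between the co-cultures. YAP1 RNA fell by 30.4% in the hepatic co-culture, a log2 fold change of -0.52 ± 0.07 (SE) with an adjusted p of 3.08e-05 by edgeR's quasi-likelihood test. In the cardiac co-culture its log2 fold change was -0.21 ± 0.07 (95% interval -0.35 to -0.06, adjusted p = 0.0650), which did not pass the threshold of 0.05. Without cardiac replicate 4 the cardiac value was -0.25 ± 0.07 with an adjusted p of 0.0153, past the threshold. The cardiac level was higher than the hepatic level by 0.32 ± 0.07 on the log2 scale (adjusted p = 0.00832), and by 0.28 ± 0.07 without cardiac replicate 4 (adjusted p = 0.0201). In bulk RNA, fewer cells of a type and less RNA per cell cannot be told apart.

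The 4 hepatic YAP1 values were also close to each other, with a coefficient of variation of 0.243% against 1.33% from counting error alone (4832 to 7829 counts). In the monoculture the coefficient was 8.69% and in the cardiac co-culture 6.25%, each above its counting error of 0.992% and 1.19%. With 4 libraries a spread is known only roughly.

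WWTR1 (chr3:149517235-149736714, minus strand), the gene of TAZ, had 364.7, 331.9, 310.9 and 335.2 CPM in the monoculture, 401.7, 364.2, 389.8 and 375.8 CPM in the hepatic and 341.7, 335.3, 338.7 and 305.0 CPM in the cardiac libraries. The lowest hepatic library and the highest monoculture library were level, so these groups touched, while all hepatic libraries lay above all cardiac ones. WWTR1 rose by 0.19 ± 0.07 in the hepatic co-culture (adjusted p = 0.0392). That call held in 4 of 12 fits that each left out 1 library, and was lost without monoculture replicates 2, 3 or 4, hepatic replicates 1, 3 or 4, or cardiac replicates 2 or 3, with log2 fold changes of 0.15 to 0.20 and adjusted p values up to 0.142. In the cardiac co-culture the log2 fold change was -0.02 ± 0.07 (95% interval -0.16 to 0.11, adjusted p = 0.863), and 0.01 ± 0.06 without cardiac replicate 4. Cardiac against hepatic it was -0.21 ± 0.07 (adjusted p = 0.0634), and -0.17 ± 0.06 without cardiac replicate 4 (adjusted p = 0.150).

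Because these coactivators are partly interchangeable at TEAD factors, their levels were also set against each other per kilobase of exon. The ratio of YAP1 to WWTR1 was 1.06 ± 0.15 (SD, n = 4, range 0.941 to 1.28) in the monoculture, 0.646 ± 0.028 (0.614 to 0.678) in the hepatic and 0.936 ± 0.11 (0.850 to 1.10) with cardiac tissue. The hepatic ratios lay below all 8 others, and the monoculture and cardiac ranges overlapped. The summed level of both genes was 82.1 ± 2.9 CPM per kb in the monoculture, 74.9 ± 1.9 in the hepatic and 75.8 ± 0.49 with cardiac tissue. Antisense or opposite-strand genes overlap 9.98% of the YAP1 exon bases (AP000942.2) and 9.45% of those of WWTR1 (WWTR1-AS1), and the strand setting of the counting is not given in the sources used here, so reads there cannot be assigned.

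**Figure D1:**
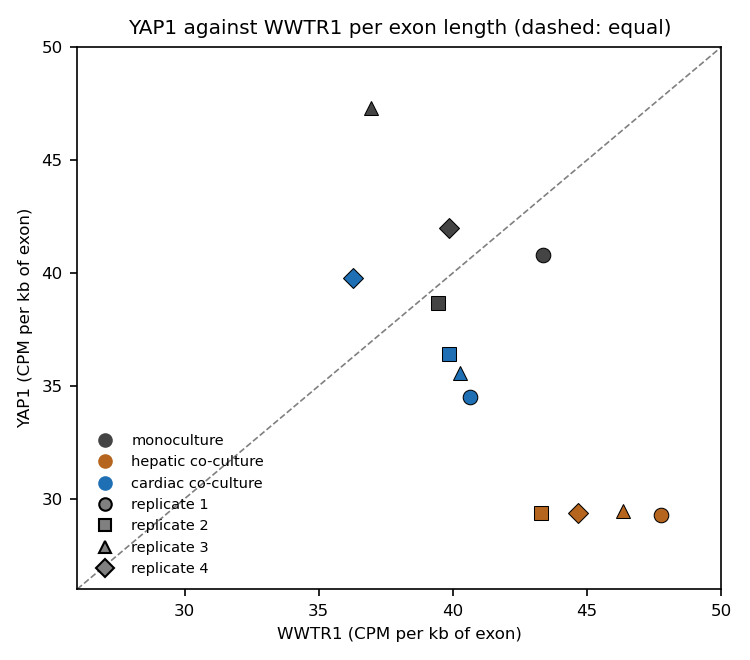
Level of YAP1 (vertical axis) against WWTR1 (horizontal axis) in CPM per kb of exon, 1 point per library, colour for the group and shape for the replicate number; the dashed line marks equal levels and neither axis starts at 0. The 4 hepatic libraries lie far below the line, at ratios of 0.614 to 0.678, and the other 8 lie near it, at 0.850 to 1.28.

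TEAD1 (chr11:12674591-12944483, plus strand), the TEAD family member followed here, differed little. It had 262.7, 243.5, 240.9 and 243.9 CPM in the monoculture, 237.3, 245.7, 246.8 and 229.4 CPM in the hepatic and 206.3, 225.1, 225.4 and 234.8 CPM in the cardiac libraries. The cardiac libraries lay below the monoculture libraries without overlap, but the log2 fold change of -0.15 ± 0.06 did not pass the threshold (95% interval -0.28 to -0.02, adjusted p = 0.123), nor did -0.18 ± 0.06 without cardiac replicate 4 (adjusted p = 0.0521). Hepatic against monoculture the log2 fold change was -0.05 ± 0.06 (95% interval -0.18 to 0.08, adjusted p = 0.608).

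LATS2 (chr13:20973032-21061547, minus strand) is both a kinase that inhibits YAP1 and TAZ and a transcriptional target of them, which makes a feedback loop. Its level per exon length was the lowest of the 10 genes. It had 34.5, 33.0, 36.9 and 39.1 CPM in the monoculture, 33.9, 27.3, 30.7 and 25.9 CPM in the hepatic and 30.2, 32.7, 31.0 and 28.9 CPM in the cardiac libraries. All cardiac libraries and 3 of 4 hepatic libraries lay below the monoculture range. LATS2 fell by 0.28 ± 0.09 in the hepatic co-culture (adjusted p = 0.0276), a call that was lost without monoculture replicates 3 or 4 or hepatic replicates 2 or 4 (log2 fold changes of -0.28 to -0.23, adjusted p up to 0.0882) and with upper-quartile scaling (adjusted p = 0.0606). In the cardiac co-culture the value was -0.22 ± 0.09 (95% interval -0.42 to -0.03, adjusted p = 0.131), and -0.20 ± 0.10 without cardiac replicate 4 (adjusted p = 0.177).

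AJUBA (chr14:22971174-22982642, minus strand) encodes a LIM-domain adaptor that binds LATS kinases at cell junctions and restrains them. It had 95.4, 122.5, 135.9 and 115.9 CPM in the monoculture, 106.9, 100.1, 95.3 and 102.3 CPM in the hepatic and 117.4, 123.7, 114.4 and 103.6 CPM in the cardiac libraries, and the groups overlapped. No comparison passed the threshold: the log2 fold change was -0.22 ± 0.09 in the hepatic (adjusted p = 0.0746) and -0.03 ± 0.09 in the cardiac co-culture (95% interval -0.22 to 0.15, adjusted p = 0.853), the latter 0.01 ± 0.09 without cardiac replicate 4. The hepatic value passed without monoculture replicate 1 (adjusted p = 0.00858) or without cardiac replicate 4 (adjusted p = 0.0477).

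**Figure D2:**
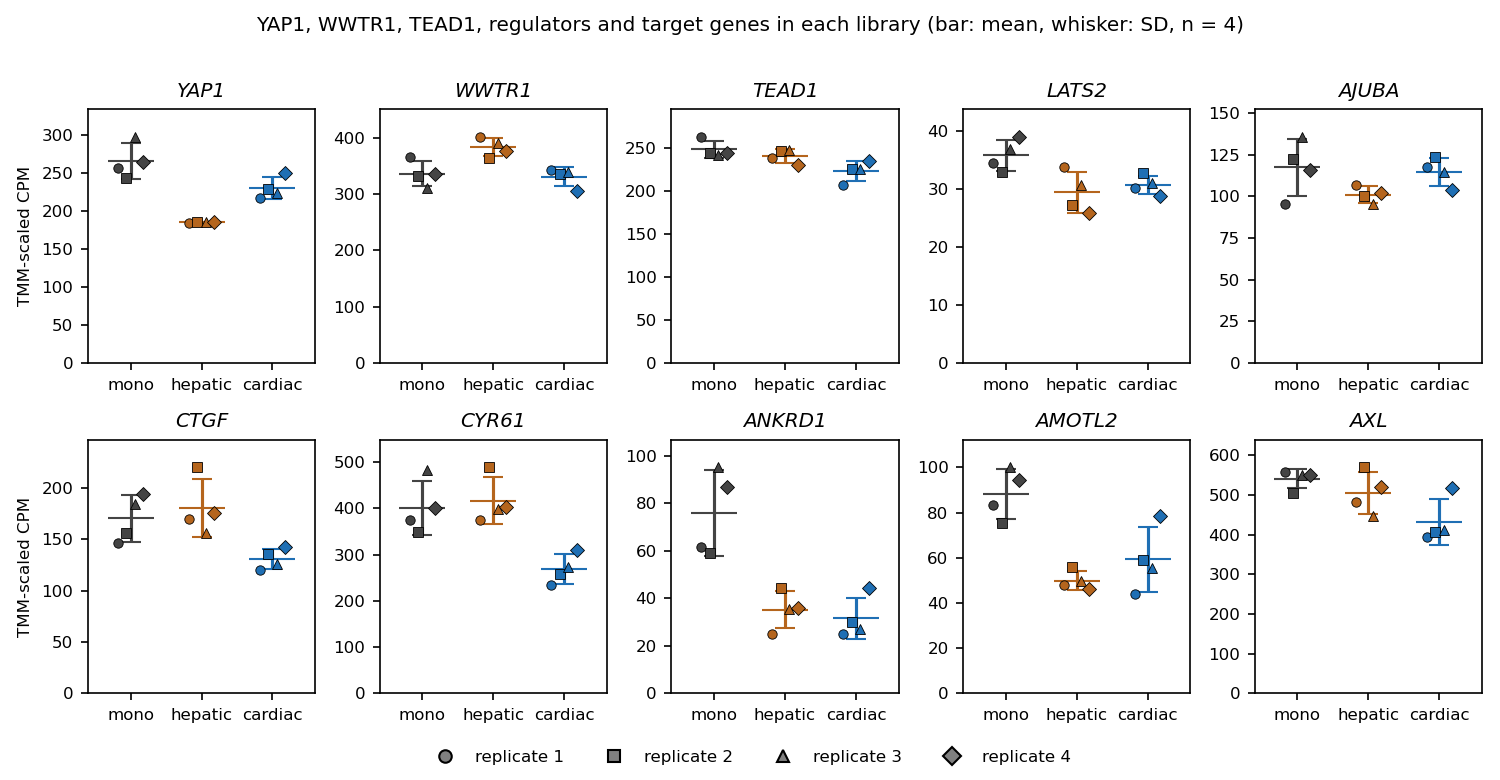
TMM-scaled CPM of the 10 genes (vertical axes, each from 0) in the monoculture, hepatic and cardiac co-culture libraries; points are libraries with the replicate number as shape, the horizontal bar is the mean and the whisker the SD (n = 4). YAP1 is lowest in the hepatic libraries (184.4 to 185.5 CPM), CTGF and CYR61 are lowest in the cardiac libraries, and ANKRD1 and AMOTL2 are lower in both co-cultures.

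CTGF and CYR61, which encode secreted matrix-associated proteins of the CCN family and are the most widely used readouts of YAP and TAZ activity, were lower beside cardiac tissue and not detectably different beside hepatic tissue. CTGF (chr6:131948176-131951373, minus strand) had 146.5, 156.4, 184.0 and 194.4 CPM in the monoculture, 170.2, 220.5, 155.7 and 176.0 CPM in the hepatic and 120.6, 135.5, 125.5 and 142.7 CPM in the cardiac libraries. All cardiac libraries lay below all others, and the hepatic range covered most of the monoculture range. CTGF fell by 23.0% in the cardiac co-culture (log2 fold change -0.38 ± 0.10, adjusted p = 0.0367) and was lower there than in the hepatic co-culture by 27.5% (-0.46 ± 0.11, adjusted p = 0.0132). Hepatic against monoculture it was 0.09 ± 0.10 with a 95% interval from -0.14 to 0.31 (adjusted p = 0.583). Against monoculture the cardiac call was lost without monoculture replicates 3 or 4 or cardiac replicates 1, 2 or 3 (log2 fold changes of -0.40 to -0.31, adjusted p up to 0.123), and against the hepatic group without cardiac replicate 3 (-0.44, adjusted p = 0.0544), while without cardiac replicate 4 both passed at -0.42 and -0.50. An opposite-strand gene (AL133346.1) overlaps 8.34% of its exon bases.

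The upstream sequence of CTGF is shown because TEAD sites there are a textbook route from YAP and TAZ to a target gene. It is the RefSeq promoter of GRCh38.p14 on the minus strand at chr6:131951374-131951622, from 250 to 2 bases before the RefSeq start and outside the annotated exons, 5′ to 3′, with each GGAATG, the core of a TEAD site, in capitals.
CTGF: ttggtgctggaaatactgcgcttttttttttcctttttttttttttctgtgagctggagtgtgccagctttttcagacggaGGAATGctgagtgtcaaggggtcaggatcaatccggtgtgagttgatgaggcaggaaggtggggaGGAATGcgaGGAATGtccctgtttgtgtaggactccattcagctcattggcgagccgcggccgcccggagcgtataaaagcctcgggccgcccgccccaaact
The core was found 3 times, at 169 to 164, 104 to 99 and 95 to 90 bases before the start, searching both strands. Of 27305 RefSeq promoters, 11.9% hold the core at least once in the same 250 bases. Among the 11381 that belong to tested genes, as the members do, the share is 9.69%. A match describes letters and not binding, which was not measured here.

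CYR61 (chr1:85580761-85583962, plus strand) had 374.3, 348.7, 482.7 and 399.9 CPM in the monoculture, 374.9, 489.5, 398.0 and 403.4 CPM in the hepatic and 233.8, 257.7, 273.2 and 310.7 CPM in the cardiac libraries. As for CTGF, every cardiac library was below every other library. CYR61 fell by 33.0% in the cardiac co-culture (log2 fold change -0.58 ± 0.11, adjusted p = 0.00735) and was lower than in the hepatic co-culture by 35.4% (-0.63 ± 0.11, adjusted p = 0.00142), and both calls held in all 12 fits that each left out 1 library. Without cardiac replicate 4 the values were -0.66 ± 0.11 and -0.70 ± 0.11. Hepatic against monoculture the value was 0.05 ± 0.11 (95% interval -0.17 to 0.28, adjusted p = 0.751).

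ANKRD1 and AMOTL2 were lower in both co-cultures. ANKRD1 (chr10:90912096-90921276, minus strand) encodes an ankyrin-repeat protein that links the sarcomere and the nucleus in heart muscle and is a strong YAP and TAZ target in other cells. It had 61.6, 59.2, 95.4 and 87.0 CPM in the monoculture, 25.1, 44.2, 35.7 and 35.9 CPM in the hepatic and 25.1, 30.0, 27.0 and 44.3 CPM in the cardiac libraries. The 8 co-culture libraries were all below the 4 monoculture libraries, and hepatic and cardiac libraries overlapped. ANKRD1 fell by 53.5% in the hepatic (log2 fold change -1.10 ± 0.24, adjusted p = 0.00644) and by 58.3% in the cardiac co-culture (-1.26 ± 0.24, adjusted p = 0.0158), with -0.16 ± 0.24 between them (95% interval -0.68 to 0.37, adjusted p = 0.776). The hepatic call held in all 12 fits that each left out 1 library. The cardiac call was lost without cardiac replicate 2 (-1.24, adjusted p = 0.0637) or 3 (-1.19, adjusted p = 0.0558), and without replicate 4 the value was -1.47 ± 0.22 (adjusted p = 0.00192), with -0.36 ± 0.22 between the co-cultures (adjusted p = 0.424).

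Sites of ANKRD1 and YAP1 are shown because, beside CTGF, they were the only members of the 8 with a RefSeq promoter in the table that held a TEAD core in those 250 bases. The first 2 lines are GGAATG matches of ANKRD1 (chr10:90921290-90921319 and chr10:90921198-90921227, minus strand), the third an AP-1 site of ANKRD1, TGANTCA (chr10:90921264-90921293, minus strand), and the last the GGAATG match of YAP1 (chr11:102110273-102110302, plus strand), each with its flanks and with the match in capitals.
ANKRD1 distal TEAD core: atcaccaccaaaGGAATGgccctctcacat
ANKRD1 proximal TEAD core: gacactgagtctGGAATGaaaattcacctg
ANKRD1 AP-1: acatttcttccTGATTCAcatattcagcag
YAP1 TEAD core: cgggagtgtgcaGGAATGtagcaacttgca
The ANKRD1 cores lie 220 to 215 and 128 to 123 bases before the RefSeq start and the AP-1 site 195 to 189 bases before it. The proximal core lies within the ANKRD1 exon that GENCODE 29 draws from a start farther upstream. The YAP1 core lies 162 to 157 bases before its start, in a window that is covered by an exon of the opposite-strand gene AP001527.2. No GGAATG was found in the windows of AMOTL2, AJUBA, LATS2, AXL and WWTR1, and the search did not cover enhancers, where many TEAD sites are known to be. The WWTR1 window (chr3:149703274-149703523) lies inside the gene's annotated span, so the sequence before its farthest upstream start was not searched. The AP-1 motif, searched on both strands, is in 6.60% of the 27305 promoters and in 4.25% of the 11381 that belong to tested genes.

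AMOTL2 (chr3:134355874-134375479, minus strand) encodes an angiomotin-family scaffold that binds YAP1 at junctions and is itself induced by YAP and TAZ. It had 83.2, 75.3, 100.2 and 94.3 CPM in the monoculture, 47.9, 55.9, 49.8 and 46.1 CPM in the hepatic and 44.1, 59.1, 55.4 and 78.4 CPM in the cardiac libraries. Hepatic libraries were all below the monoculture, while cardiac replicate 4 reached into the monoculture range. AMOTL2 fell by 43.4% in the hepatic (log2 fold change -0.82 ± 0.14, adjusted p = 0.00111) and by 32.7% in the cardiac co-culture (-0.57 ± 0.14, adjusted p = 0.0305), with 0.25 ± 0.14 between them (95% interval -0.06 to 0.56, adjusted p = 0.364). The cardiac call was lost without any of monoculture replicates 1, 3 and 4 and cardiac replicates 1, 2 and 3 (log2 fold changes of -0.60 to -0.46, adjusted p up to 0.0969) and in a fit of these 2 groups alone (adjusted p = 0.0709), and without cardiac replicate 4 it was -0.74 ± 0.11 (adjusted p = 3.85e-04), with 0.09 ± 0.11 between the co-cultures (adjusted p = 0.737).

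AXL (chr19:41219203-41261766, plus strand) encodes a receptor tyrosine kinase of the TAM family, known for invasion and drug resistance in mesenchymal cancer lines, and is a reported YAP target. It had 556.4, 505.3, 550.2 and 549.8 CPM in the monoculture, 482.2, 570.4, 445.8 and 519.8 CPM in the hepatic and 394.4, 405.4, 410.9 and 518.2 CPM in the cardiac libraries. Cardiac replicates 1 to 3 lay below all other libraries and cardiac replicate 4 inside the monoculture range. AXL fell by 0.32 ± 0.09 in the cardiac co-culture (adjusted p = 0.0336), and without replicate 4 by 0.42 ± 0.08 on the log2 scale (adjusted p = 0.00129). The call was lost without any of monoculture replicates 1, 3 and 4 and cardiac replicates 1, 2 and 3 (log2 fold changes of -0.31 to -0.28, adjusted p up to 0.118). Hepatic against monoculture it was -0.10 ± 0.09 (95% interval -0.29 to 0.09, adjusted p = 0.437). Cardiac against hepatic it was -0.22 ± 0.09 (adjusted p = 0.153), and -0.32 ± 0.08 without cardiac replicate 4, which passed (adjusted p = 0.0200).

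Over the 10 genes, the hepatic co-culture had 1 called higher (WWTR1) and 4 called lower (ANKRD1, AMOTL2, LATS2 and YAP1), where 14.4% of the 17468 tested genes were called higher and 13.6% lower. The cardiac co-culture had 0 called higher and 5 called lower (CTGF, CYR61, ANKRD1, AMOTL2 and AXL), where 4.93% of tested genes were called higher and 3.33% lower. At an unadjusted p under 0.05 edgeR's quasi-likelihood test had 0 higher and 8 lower there, and DESeq2 called 0 higher and 6 lower. DESeq2 called 1395 of all 17468 tested genes higher and 1011 lower in that comparison. The share of all tested genes at an unadjusted p was not counted, here or for the lists below. The unadjusted counts therefore have no background and cannot be set beside the adjusted shares. Cardiac against hepatic, 1 was called higher (YAP1) and 2 lower (CTGF and CYR61), where 3.27% and 2.91% of tested genes were called. Libraries did not overlap for 3 of the 10 genes hepatic against monoculture, near the 30.5% of all tested genes. They did not for 5 cardiac against monoculture (15.2% of all), and for 3 lower and 1 higher between the co-cultures (11.9% of all). Both co-cultures are compared with the same monoculture libraries, so their values are not independent of each other. The median log2 fold change of the 10 genes was -0.16 hepatic and -0.27 cardiac against monoculture and -0.13 cardiac against hepatic, beside 0.015, 0.0063 and -0.0034 for all tested genes. In the cardiac co-culture the fitted value was below 0 for each of the 10, as for 49.1% of all tested genes. It was above 0 for WWTR1 under upper-quartile scaling (0.0094) and without monoculture replicate 1 (0.017), for AJUBA without monoculture replicate 3 (0.045), and for WWTR1 and AJUBA without cardiac replicate 4 (0.012 each). Without that library 6 were lower in the cardiac co-culture (YAP1 added), 1 higher and 5 lower in the hepatic (AJUBA added), and 1 higher and 3 lower cardiac against hepatic (AXL added). The background moved as well: in that fit 1754 of all tested genes were called higher and 1624 lower in the cardiac co-culture, 2755 and 2774 in the hepatic, and 463 and 386 between them. Without cardiac replicate 2 or 3 the count of the 10 genes in the cardiac co-culture was 1 (CYR61). The background fell too: without cardiac replicate 2, 263 of all tested genes were called there, against 1443 with all libraries. Among all cardiac calls against monoculture 59.7% were higher, and 72.2% with upper-quartile scaling.

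**Figure D3:**
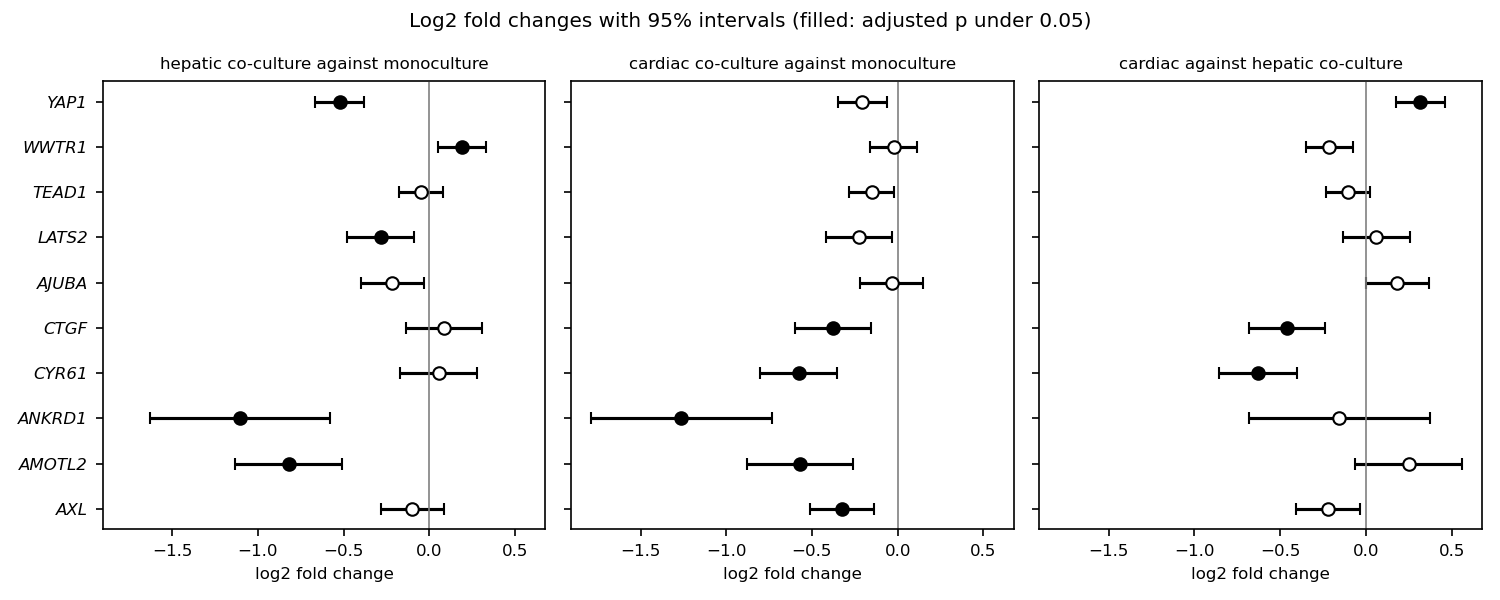
Log2 fold changes (horizontal axes) of the 10 genes in the 3 comparisons, with 95% intervals from the fit over 12 libraries; filled points passed an adjusted p of 0.05. YAP1 moved most clearly beside hepatic tissue (-0.52), CTGF and CYR61 were lower beside cardiac tissue (-0.38 and -0.58), and ANKRD1 was lower in both (-1.10 and -1.26).

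Per kilobase of exon, the order of levels in the monoculture was CYR61 (164 CPM per kb), AXL (105), CTGF (72.8), YAP1 (42.2), WWTR1 (39.9), ANKRD1 (38.3), TEAD1 (24.1), AJUBA (19.6), AMOTL2 (14.7) and LATS2 (6.43). Libraries of the neighbours YAP1 and WWTR1, WWTR1 and ANKRD1, and AJUBA and AMOTL2 overlapped, and the other neighbours did not. In the hepatic co-culture WWTR1 (45.5) stood above YAP1 (29.4) without overlap, and ANKRD1 (17.8) came after TEAD1 (23.3), whose libraries it overlapped. In the cardiac co-culture WWTR1 (39.3) and YAP1 (36.6) overlapped, and ANKRD1 (15.9) overlapped its neighbours AJUBA (19.2) and AMOTL2 (9.91). CYR61 remained the highest and LATS2 the lowest in each group.

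Within groups, the 5 targets that were called lower in the cardiac co-culture varied together from library to library. After each group's mean was removed, the 10 pairs among CTGF, CYR61, ANKRD1, AMOTL2 and AXL had Pearson correlations of logCPM from 0.66 to 0.88 over 12 libraries, and of 0.55 to 0.86 without cardiac replicate 4. YAP1 had r from 0.50 to 0.82 with these 5 genes, while WWTR1 had r from -0.84 to -0.61 (0.32 to 0.77 and -0.78 to -0.42 without that library). In the hepatic libraries YAP1 deviated from its mean only by -0.004 to 0.005. Its r therefore comes almost wholly from the monoculture and cardiac libraries. In hepatic replicate 2, where CTGF and ANKRD1 lay 0.30 and 0.36 above their means, YAP1 lay at 0. TEAD1 (0.030 to 0.59), LATS2 (-0.42 to 0.056), which is itself a target, and AJUBA (-0.32 to 0.29) followed the 5 genes less closely. The points share each library's scaling and come from 3 groups of 4, so these are descriptions. The r of pairs of other tested genes was not computed, so whether such r is particular to these genes was not tested. High libraries were monoculture replicate 3, hepatic replicate 2 and cardiac replicate 4: ANKRD1 lay 0.36, 0.36 and 0.52 above its group mean there on the log2 scale. These libraries also had the most counts of their groups (42.0, 42.4 and 37.4 M). They were the lowest of their groups on the first principal component (-51.1, 24.5 and -24.9). The part of depth or of that component in the co-variation was not tested.

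**Figure D4:**
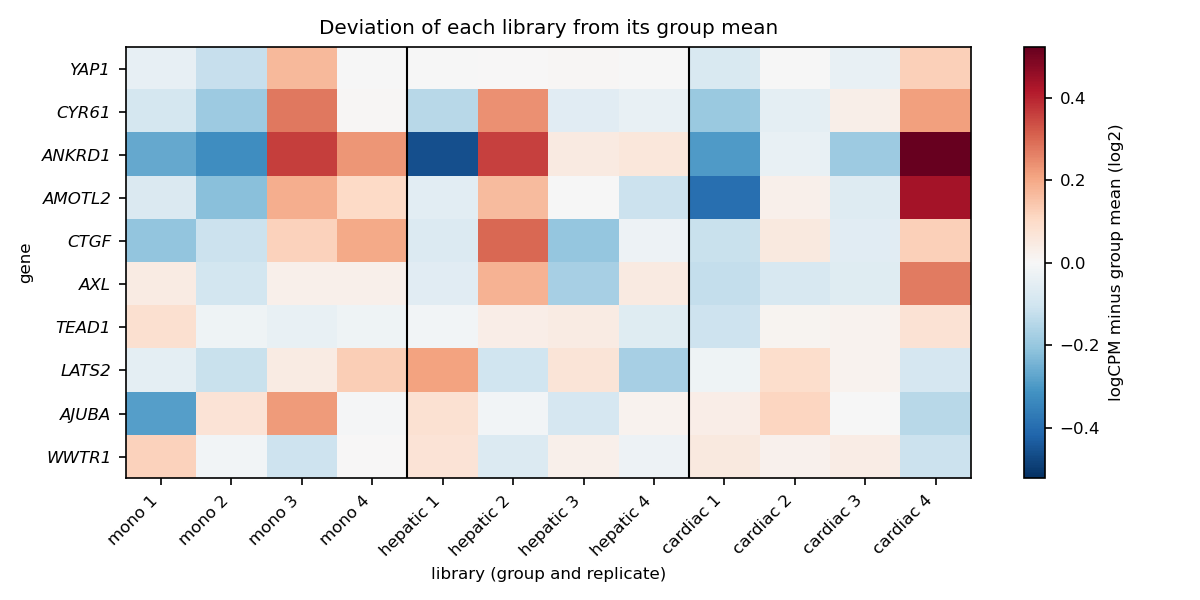
Deviation of each library (columns) from the mean of its group, in log2 CPM (colour), for the 10 genes (rows); vertical lines separate the groups. CYR61, ANKRD1, AMOTL2, CTGF and AXL are above their mean together in hepatic replicate 2 and cardiac replicate 4, and WWTR1 is below its mean there.

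Genes outside the lists were ranked by how closely their logCPM over the 12 libraries, groups included, followed the mean z-score of CTGF, CYR61 and ANKRD1. The 6 closest protein-coding genes were ALDH3A2 (a fatty aldehyde dehydrogenase, r = 0.93), CYP1A1 (a monooxygenase induced by the aryl hydrocarbon receptor, 0.93), DDAH1 (which degrades methylated arginines, 0.92), MAPK9 (the kinase JNK2, 0.91), CHMP7 (an ESCRT-III protein, 0.91) and NFATC2 (a calcium-regulated transcription factor, 0.91). With the group means removed their r was 0.71 to 0.88. They were picked from all tested genes for the likeness, which is a description. NFATC2 had 36.7 ± 2.3 CPM in the monoculture, 37.8 ± 3.5 in the hepatic and 27.9 ± 0.99 with cardiac tissue (SD, n = 4), the order seen for CTGF and CYR61. CYP1A1 varied more, with 31.7 ± 28 CPM in the monoculture, 16.4 ± 2.6 in the hepatic and 7.04 ± 5.5 with cardiac tissue.

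Of 16 other genes of a published YAP and TAZ target signature, the hepatic co-culture had 2 higher and 5 lower (median log2 fold change -0.04), the cardiac co-culture 2 higher and 1 lower (-0.06), and cardiac against hepatic 1 higher and 1 lower (0.08). Of all tested genes 14.4% were called higher and 13.6% lower hepatic, 4.93% and 3.33% cardiac, and 3.27% and 2.91% between the co-cultures, and the lists below are to be read beside the same shares. F3, tissue factor, which starts coagulation, fell in the hepatic co-culture by 0.53 ± 0.10 (136.7 ± 20.6 to 94.9 ± 5.0 CPM, adjusted p = 0.00128) and was at 131.4 ± 17.0 CPM in the cardiac co-culture, higher than in the hepatic one by 0.47 ± 0.10 (adjusted p = 0.0103), or 0.51 ± 0.11 without cardiac replicate 4. MYOF, a membrane repair protein, fell in both, by 0.29 ± 0.06 in the hepatic (adjusted p = 0.00265) and by 0.25 ± 0.06 in the cardiac co-culture (adjusted p = 0.0222, called in 8 of 12 fits that each left out 1 library, and -0.26 ± 0.06 without cardiac replicate 4). DOCK5, a Rac activator, fell by 0.29 ± 0.07 and TGFB2, a TGF-beta ligand, by 0.48 ± 0.12 in the hepatic co-culture (adjusted p of 0.00559 and 0.00816).

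Other members of that signature rose. NT5E (CD73, which makes adenosine) went from 599.9 ± 86.2 CPM in the monoculture to 1045 ± 77 in the hepatic co-culture, a log2 rise of 0.80 ± 0.12 (adjusted p = 2.69e-04). Its cardiac level of 765.5 ± 133.9 CPM was lower than the hepatic one by 0.45 ± 0.12 (adjusted p = 0.0398, called in 6 of 12 fits that each left out 1 library). CCDC80, a secreted matrix protein, rose by 0.55 ± 0.11 in the hepatic (adjusted p = 0.00199) and by 0.45 ± 0.11 in the cardiac co-culture (adjusted p = 0.0250, called in 7 of 12 such fits). GADD45B, a stress-response gene, rose in the cardiac co-culture by 0.35 ± 0.08 (adjusted p = 0.0191, called in 8 of 12 such fits). IGFBP3, singled out after its values were seen as the highest point of the list, had 1.54 in the hepatic and 1.51 with cardiac tissue without passing (adjusted p of 0.0784 and 0.141), and passed in both without cardiac replicate 4 (1.54 and 1.82, adjusted p of 0.0334 and 0.0323). Without that library NT5E was at -0.33 ± 0.09 between the co-cultures, and CCDC80 at 0.51 ± 0.12 and GADD45B at 0.38 ± 0.09 in the cardiac co-culture. The counts of the signature were then 4 higher and 1 lower in the cardiac co-culture and 1 and 1 between the co-cultures. In that fit 1754 of all tested genes were called higher and 1624 lower in the cardiac co-culture, and 463 and 386 between the co-cultures. List counts without that library, here and below, are to be read beside these and not beside the shares with all libraries.

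A list of 23 Hippo genes holds kinases, scaffolds and adaptors upstream of YAP1 and TAZ as well as other TEAD factors and TEAD cofactors. In the hepatic co-culture 7 were higher and 2 lower (median -0.0062), and in the cardiac co-culture 1 was higher and 0 lower by edgeR's quasi-likelihood test (-0.04), where an unadjusted p under 0.05 gave 3 higher and 2 lower and DESeq2 2 higher and 1 lower. Over all tested genes edgeR called 28.0% in the hepatic and 8.26% in the cardiac comparison. DESeq2 called 1395 of all 17468 tested genes higher and 1011 lower in the cardiac one. Cardiac against hepatic, 3 were higher and 4 lower (-0.02). FRMD6, a FERM protein that activates the cascade, rose from 201.7 ± 5.9 to 296.7 ± 14.3 CPM beside hepatic tissue (0.56 ± 0.09, adjusted p = 2.27e-04) and was at 200.8 ± 32.9 CPM beside cardiac tissue, lower than hepatic by 0.56 ± 0.09 (adjusted p = 5.77e-04), or by 0.46 ± 0.07 without cardiac replicate 4. SAV1, the scaffold of the STK3 and STK4 kinases, rose by 0.55 ± 0.11 (adjusted p = 0.00113) and LIMD1, an AJUBA relative that restrains LATS, by 0.48 ± 0.08 (adjusted p = 3.70e-04). VGLL4, which competes with YAP1 for TEAD factors, rose by 0.41 ± 0.09 (adjusted p = 0.00218). The other 3 called higher were TEAD2 by 0.52 ± 0.11 (adjusted p = 0.00239), NF2 (merlin, an upstream activator) by 0.43 ± 0.14 (adjusted p = 0.0306, called in 6 of 12 fits that each left out 1 library) and the kinase STK3 by 0.26 ± 0.09 (adjusted p = 0.0441, called in 2 of 12).

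The genes that fell beside hepatic tissue were WWC1 (KIBRA, an upstream activator of the cascade), by 0.80 ± 0.12 (33.7 ± 4.8 to 19.3 ± 1.8 CPM, adjusted p = 9.72e-05), and VGLL3, a TEAD cofactor at a low level, by 0.94 ± 0.16 (8.93 ± 0.98 to 4.62 ± 1.1 CPM, adjusted p = 4.19e-04). Of the activators of the cascade in this list called in the hepatic co-culture, FRMD6, SAV1, NF2 and STK3 were higher and WWC1 lower. Outside the list, the kinase LATS2 and the scaffold AMOTL2 were called lower there (-0.28 and -0.82). The calls of NF2, STK3 and LATS2 held in 6, 2 and 8 of 12 fits that each left out 1 library. WWC1 was higher in cardiac than in hepatic libraries by 0.56 ± 0.12 (adjusted p = 0.00698), as was MAP4K4, a kinase acting on LATS, by 0.28 ± 0.06 (adjusted p = 0.00951). MAP4K4 also rose in the cardiac co-culture against monoculture, by 0.26 ± 0.06 (adjusted p = 0.0191, called in 8 of 12 fits that each left out 1 library). STK3 was lower in cardiac than in hepatic libraries by 0.41 ± 0.09 (adjusted p = 0.0115). The calls of NF2 (-0.52, adjusted p = 0.0356), TEAD2 (-0.39, adjusted p = 0.0445) and VGLL3 (0.58, adjusted p = 0.0442) between the co-cultures held in 6, 4 and 1 of 12 such fits, and those of TEAD2 and VGLL3 were lost without cardiac replicate 4 (adjusted p of 0.0961 and 0.0705). Without that library WWC1 was at 0.49 ± 0.12, MAP4K4 at 0.28 ± 0.06, STK3 at -0.42 ± 0.10 and NF2 at -0.72 ± 0.12 between the co-cultures, and MAP4K4 at 0.26 ± 0.06 in the cardiac co-culture. The cardiac count against monoculture was then 4 higher and 1 lower, and that between the co-cultures 2 higher and 3 lower. In that fit more of all tested genes were also called in the cardiac co-culture, and fewer between the co-cultures.

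**Figure D5:**
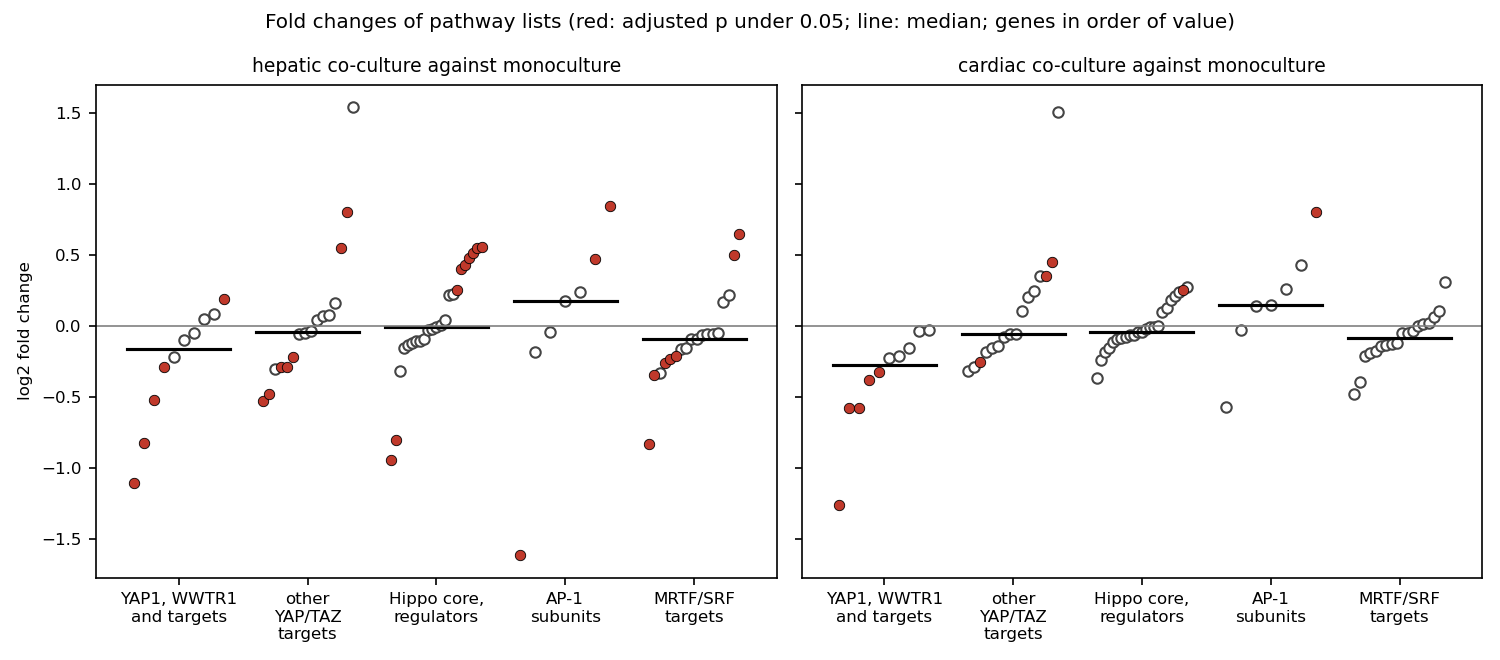
Log2 fold changes against monoculture (vertical axis) of the 10 genes and of 4 other lists (horizontal axis), hepatic on the left and cardiac on the right; each point is a gene, red if its adjusted p was under 0.05, and the bar is the list's median. In the hepatic panel red points lie on both sides of 0 in all 5 lists, while in the cardiac panel the 10 genes have 5 red points, all below 0.

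AP-1 subunits, which sit beside TEAD factors at many YAP and TAZ enhancers, had 2 of 7 higher and 1 lower in the hepatic co-culture (median 0.17), 1 higher in the cardiac co-culture (0.15), and 2 higher cardiac against hepatic (0.011). JUN rose by 0.47 ± 0.10 in the hepatic co-culture (185.7 ± 25.6 to 257.5 ± 20.4 CPM, adjusted p = 0.00242). JUNB rose by 0.84 ± 0.22 in the hepatic (adjusted p = 0.0158) and by 0.81 ± 0.22 in the cardiac co-culture (adjusted p = 0.0477), the latter called in 2 of 12 fits that each left out 1 library. FOSB, at 3.71 ± 1.1 CPM in the monoculture, fell to 1.20 ± 0.28 CPM in the hepatic co-culture (-1.61 ± 0.27, adjusted p = 2.83e-04) and was higher in the cardiac one by 1.05 ± 0.27 (adjusted p = 0.0258, called in 7 of 12 such fits). FOSL2 was higher in cardiac than in hepatic libraries by 0.33 ± 0.08 (adjusted p = 0.0192, called in 10 of 12 such fits). Without cardiac replicate 4 the cardiac co-culture had 2 higher, JUNB at 0.97 ± 0.17 and JUN at 0.33 ± 0.10 (adjusted p = 0.0212), and the comparison of the co-cultures again 2 higher, FOSB at 1.17 ± 0.28 and FOSL2 at 0.35 ± 0.08. With all libraries, 28.0% of all tested genes were called hepatic, 8.26% cardiac and 6.18% between the co-cultures. The cardiac count of all genes was larger without cardiac replicate 4, and that between the co-cultures smaller.

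Actin cytoskeleton genes of the MRTF and SRF route, which responds to the same mechanical cues as YAP and TAZ, had 2 of 18 tested higher and 5 lower in the hepatic co-culture (median -0.09), beside 14.4% and 13.6% of all tested genes. In the cardiac co-culture 0 of 18 passed by edgeR's quasi-likelihood test (median -0.08), with 1 higher and 5 lower at an unadjusted p under 0.05 and 2 lower by DESeq2. Without cardiac replicate 4 there were 3 lower, MYL9, ACTB and VCL, in a fit where more of all tested genes were called as well. Of all tested genes edgeR called 8.26% in the cardiac co-culture with all libraries, and DESeq2 called 1395 of 17468 higher and 1011 lower. MYL9, a myosin light chain of contractile cells, fell from 92.1 ± 9.98 to 51.8 ± 2.5 CPM in the hepatic co-culture (-0.83 ± 0.14, adjusted p = 8.96e-04). Its cardiac value was -0.48 (adjusted p = 0.0520), and -0.69 ± 0.08 without replicate 4 (adjusted p = 6.29e-05). CALD1 (caldesmon) fell in the hepatic co-culture by 0.34 ± 0.07 and FLNA (filamin A) by 0.26 ± 0.07 (adjusted p of 0.00153 and 0.0124). FHL2, a LIM cofactor, rose there by 0.65 ± 0.09 and TPM2, a tropomyosin, by 0.50 ± 0.12 (adjusted p of 9.24e-05 and 0.00505). Cardiac against hepatic 1 was higher, CALD1 by 0.35 ± 0.07 (adjusted p = 0.00506), and 1 lower, FHL2 by 0.54 ± 0.09 (adjusted p = 0.00156), and without cardiac replicate 4 the count was the same, with CALD1 at 0.37 ± 0.07 and FHL2 at -0.44 ± 0.09.

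Relatives and partners of CTGF, CYR61, ANKRD1 and AXL were tested for 6 of 10 genes, with WISP1, WISP3, ANKRD2 and ANKRD23 under the count filter. The hepatic co-culture had 1 higher and 2 lower (median -0.22), the cardiac co-culture 1 higher and 3 lower (-0.32), and 0 passed by edgeR's quasi-likelihood test between the co-cultures (0.011), with 0 at an unadjusted p under 0.05 and 0 by DESeq2. Of all tested genes edgeR called 28.0%, 8.26% and 6.18% in these comparisons, and with 6 genes a share is coarse. Between the co-cultures DESeq2 called 865 of all 17468 tested genes higher and 737 lower. NOV, another CCN protein often opposed to CTGF, fell by 0.89 ± 0.17 in the hepatic (24.1 ± 3.6 to 13.1 ± 1.8 CPM, adjusted p = 9.70e-04) and by 0.61 ± 0.16 in the cardiac co-culture (adjusted p = 0.0333, called in 6 of 12 fits that each left out 1 library). PROS1, protein S, a ligand of TAM receptors, rose in both, by 0.60 ± 0.11 (adjusted p = 0.00121) and by 0.47 ± 0.11 (adjusted p = 0.0212, called in 6 of 12 such fits). The TAM receptors beside AXL fell in the cardiac co-culture: MERTK by 0.47 ± 0.13 (adjusted p = 0.0314, called in 7 of 12 such fits) and TYRO3 by 0.61 ± 0.18 (adjusted p = 0.0476, called in 2 of 12). TYRO3 also fell in the hepatic co-culture, by 0.59 ± 0.18 (adjusted p = 0.0235, called in 8 of 12). Without cardiac replicate 4 the cardiac count was again 1 higher and 3 lower, with NOV at -0.83 ± 0.13, PROS1 at 0.59 ± 0.08, MERTK at -0.57 ± 0.13 and TYRO3 at -0.85 ± 0.14. More of all tested genes were called in that fit than with all libraries.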

How the data were processed

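The authors deposited 1 table of unnormalized read counts, with Ensembl genes in rows and 12 libraries in columns. Per the submitters' processing notes, HISAT2 2.2.1, featureCounts 2.0.6, DESeq2 1.42.0 and GRCh38 were used; which annotation and strand setting were used is not given in the sources used here. A stranded and an unstranded kit both appear in the labels' protocols. Symbols, coordinates and exon lengths are from GENCODE 29, which matched all 58735 genes. Genes passing filterByExpr (17468, with 99.9% of counts) were tested two-sided with edgeR 4.0.16 (R 4.3.3), robust quasi-likelihood, TMM scaling, 1 fit over 12 libraries, Benjamini-Hochberg adjustment over tested genes, threshold 0.05. The fit was tested on simulated data. SE is the absolute log2 fold change over the root of F; 95% intervals use the fit's degrees of freedom. The common biological coefficient of variation was 14.9%. LogCPM (limma 3.58.1 and edgeR) used a prior count of 2.

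The members, gene lists and tests were chosen with earlier results of these data known. Named genes are the 10 members, up to 4 called genes per list, comparison and direction in order of adjusted p, and the 6 genes most like CTGF, CYR61 and ANKRD1; IGFBP3, JUN, ACTB and VCL in the cardiac comparison and TEAD2, NF2 and STK3 in the hepatic one were added after their values were seen. Promoters are from RefSeq (GRCh38.p14), where 8 of 10 members matched; CYR61 and TEAD1 are named only. Alternatives were the DESeq2 test, DESeq2 size factors, upper-quartile scaling, dropping the filter, a replicate block, fits of 2 groups, and leaving out each library. No 2 libraries were identical, and the counts of replicates differed beyond sampling noise.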

Additional observations from a re-analysis of the deposited data

Results flagged for a closer look

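Among 30 groups of 4 libraries (10 genes in 3 groups), 3 held a library far from the other 3 by Dixon's gap over range (95% critical value), a limit that chance passes in about 5% of groups. AXL in monoculture replicate 2 was the lowest at 505.3 CPM, with the others at 549.8 to 556.4 CPM (0.871). AXL in cardiac replicate 4 was the highest at 518.2 CPM, with the others at 394.4 to 410.9 CPM (0.867), in the library that also stood apart over all genes. TEAD1 in monoculture replicate 1 was the highest at 262.7 CPM, with the others at 240.9 to 243.9 CPM (0.862).

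For 3 members the effects of the co-cultures differed by the direct test in edgeR's quasi-likelihood fit. CTGF was lower in the cardiac than in the hepatic co-culture, with a log2 fold change of -0.46, and CYR61 with -0.63. YAP1 was higher in the cardiac than in the hepatic co-culture, by 0.32.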

How the results depend on the processing

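Calls of ANKRD1, AMOTL2 and YAP1 (hepatic), CYR61 (cardiac), and CYR61 and YAP1 (cardiac against hepatic) held in every alternative run. Leaving out 1 library at a time gave 3 to 6 members called in the hepatic comparison (5 with all libraries), with 3 without monoculture replicates 3 or 4 or hepatic replicate 4. In the cardiac comparison it gave 1 to 6 members (5 with all), with 1 without cardiac replicates 2 or 3, and 263 to 3378 of all genes (1443 with all), lowest without cardiac replicate 2 and highest without replicate 4. Cardiac against hepatic it gave 676 to 1269 genes (1080 with all), lowest without hepatic replicate 3. Such a range of all genes is not given for the hepatic comparison, so its counts of members lack that background. All genes called in the cardiac comparison numbered 2406 with DESeq2 and 2219 with no filter; the cause was not tested. DESeq2 also called YAP1 in the cardiac comparison (adjusted p = 0.0349) and WWTR1 between the co-cultures (0.0279). With no filter AJUBA (hepatic, 0.0326) and AXL (cardiac against hepatic, 0.0426) passed and WWTR1 (hepatic, 0.0727) did not.

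Equal replicate numbers showed no clear pairing of the libraries. A correlation of deviations over 0.1 was seen in 4 of 12 same-numbered pairs (range -0.30 to 0.33), and 4 of 12 libraries were closest to their own number. Such weak correlations cannot exclude a pairing. The numbers in the library names, which differ from the replicate numbers, were not tried. With a replicate block 4660, 1310 and 891 genes were called in the hepatic, cardiac and cardiac against hepatic comparisons, and 5, 5 and 3 members, the same numbers of members as without it; YAP1 was at -0.52 in the hepatic and ANKRD1 at -1.27 in the cardiac comparison.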
